A study of Homo sapiens with 12 samples.

Results

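The transcripts described here belong to 8 human genes of copper handling: SLC31A1 and SLC31A2 for uptake, ATP7A for export, ATOX1 and CCS as chaperones, SLC25A3 as a mitochondrial carrier, COMMD1 in transporter trafficking, and CUTC, a copper-binding protein. They were selected by symbol. Each symbol matched 1 identifier, so the members are 8 of the 57905 identifiers in the count table. All 8 had enough reads to be tested.

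The libraries came from OCI-AML3, a human cell line established from acute myeloid leukaemia, in 4 groups of 3 libraries each. The vehicle group and the SA group were cultured for 6 days, the latter with 500 µM SA. The labels do not spell out SA; studies of heme commonly use these letters for succinylacetone, which inhibits the enzyme ALAD. The sgSCR and sgALAS1 groups are cells transduced with a scrambled guide or a guide to ALAS1, the first enzyme of heme synthesis, and guide expression was induced by doxycycline for 7 days. The labels do not describe the vehicle and SA cells as carrying a guide or receiving doxycycline. All groups are 1 cell line, each guide group has 1 guide label, and the labels leave unstated whether the replicates of a group were cultured separately, so the p-values cover no more than the spread among libraries.

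Copper enters cells through CTR1, the protein of SLC31A1, and the cytosolic chaperones ATOX1 and CCS then carry it to the export pump ATP7A and to superoxide dismutase. Mitochondria import copper through SLC25A3, better known as the phosphate carrier, and COX17, SCO1 and SCO2 pass it to cytochrome oxidase. Free copper is toxic, so cells bind it with metallothioneins and glutathione, and much of the control of CTR1 and ATP7A lies in the movement and breakdown of the proteins rather than in their transcripts.

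The promoters of 3 members are shown because SLC31A1 is the main copper importer and SLC25A3 and CUTC are the members that passed a test. The windows run from 250 bases before to 50 bases after the start site in RefSeq, GRCh38.p14, and the table held a window for 7 of the 8 members. Capitals mark the GC box GGGCGG, the site of SP1-type factors, and the metal response element core, TGCACNC or TGCGCNC, on either strand. The core is the motif of MTF1, the factor that activates metallothionein genes.
SLC31A1 promoter, chr9:113221294-113221593, plus strand: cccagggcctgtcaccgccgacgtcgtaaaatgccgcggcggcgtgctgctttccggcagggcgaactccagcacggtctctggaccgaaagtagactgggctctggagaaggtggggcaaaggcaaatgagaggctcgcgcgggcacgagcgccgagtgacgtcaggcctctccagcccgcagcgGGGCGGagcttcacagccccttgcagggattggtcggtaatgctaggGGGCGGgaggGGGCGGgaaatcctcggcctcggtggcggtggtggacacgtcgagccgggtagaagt
SLC25A3 promoter, chr12:98593436-98593735, plus strand: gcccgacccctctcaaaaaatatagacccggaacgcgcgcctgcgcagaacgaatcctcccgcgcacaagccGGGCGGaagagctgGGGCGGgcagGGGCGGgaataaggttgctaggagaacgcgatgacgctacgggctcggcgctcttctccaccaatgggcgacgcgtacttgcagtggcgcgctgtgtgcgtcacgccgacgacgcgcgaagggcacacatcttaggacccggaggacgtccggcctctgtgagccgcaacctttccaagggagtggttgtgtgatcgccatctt
CUTC promoter, chr10:99731984-99732283, plus strand: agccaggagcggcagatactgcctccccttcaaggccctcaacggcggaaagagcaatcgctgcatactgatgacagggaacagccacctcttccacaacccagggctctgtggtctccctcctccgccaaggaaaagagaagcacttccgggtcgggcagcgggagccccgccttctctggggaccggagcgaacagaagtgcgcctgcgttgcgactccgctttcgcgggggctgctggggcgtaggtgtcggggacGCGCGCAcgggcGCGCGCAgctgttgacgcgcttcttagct
The windows of SLC31A1 and SLC25A3 each held 3 GC boxes and 0 metal response element cores. The CUTC window held 2 cores, both after its start site, and 0 GC boxes. Among all 35116 windows of the table, 44.95% held a GC box and 29.55% held a metal response element core, so neither motif is rare at promoters. These matches describe letters and not bound sites.

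Reads per library lay between 4658513 and 7339843, of which 1709 to 3509 were reads of the 8 members. QuantSeq reads a tag near the 3′ end of each transcript, and levels are given as CPM, the normalised read count scaled to library size. The guided gene, ALAS1, was measured at 38.6, 41.9 and 37.4 CPM in sgSCR and at 26.2, 26.3 and 27.3 CPM in sgALAS1, a log2 change of -0.56 (adjusted p = 0.00777, and 0.0503 without sgSCR replicate 2). A transcript count does not show whether the gene was edited. ALAS1 rose in SA, from 37.5, 36.4 and 31.1 CPM to 106, 102 and 111 CPM. All 8 genes examined for a myeloid leukaemia line, not all of them particular to myeloid cells, were tested, although the myeloid enzyme gene MPO reached only 1.55 to 4.97 CPM. Of these 8 genes, LYZ averaged 564 CPM in vehicle, 1455 in SA, 341 in sgSCR and 1030 in sgALAS1, and SPI1 averaged 102, 198, 125 and 159 CPM in the same order. CD33, CEBPA, CD68 and PTPRC also averaged higher in SA than in vehicle and in sgALAS1 than in sgSCR. NPM1 went the other way in both arms, with 1291, 1033, 1177 and 1063 CPM in that order. MPO averaged 3.50, 1.71, 3.27 and 3.78 CPM, lower in SA only. Of 15 markers of other cell types, 5 had 0 reads. Their summed level was 18.8 to 22.3 CPM in vehicle, 3.11 to 8.36 in SA, 6.37 to 8.27 in sgSCR and 3.10 to 7.09 in sgALAS1, mostly through CD3D and COL1A2, while the T cell genes CD3E and CD2 were at 0 in every library. The part of these marker differences in the results below was not tested, and fewer cells of a type and less RNA per cell cannot be told apart in bulk libraries.

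Under SA, 1 member fell and 0 rose: SLC25A3. Under the ALAS1 guide, 1 member fell and 0 rose: CUTC. A gene passed the test when its adjusted p in edgeR's quasi-likelihood test was under 0.05, and by that rule 11.1% of the 13832 tested identifiers passed for SA against vehicle and 11.7% for sgALAS1 against sgSCR. With 8 members, 1 call in each comparison is near that background. The median log2 change of the 8 members was 0.11 under SA and 0.05 under the guide, beside -0.01 and -0.00 over all tested identifiers. At an unadjusted p under 0.05 there were 2 of 8 members for SA, beside 24.4% of all tested identifiers, and 5 of 8 for the guide, beside 24.8%.

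**Figure D1:**
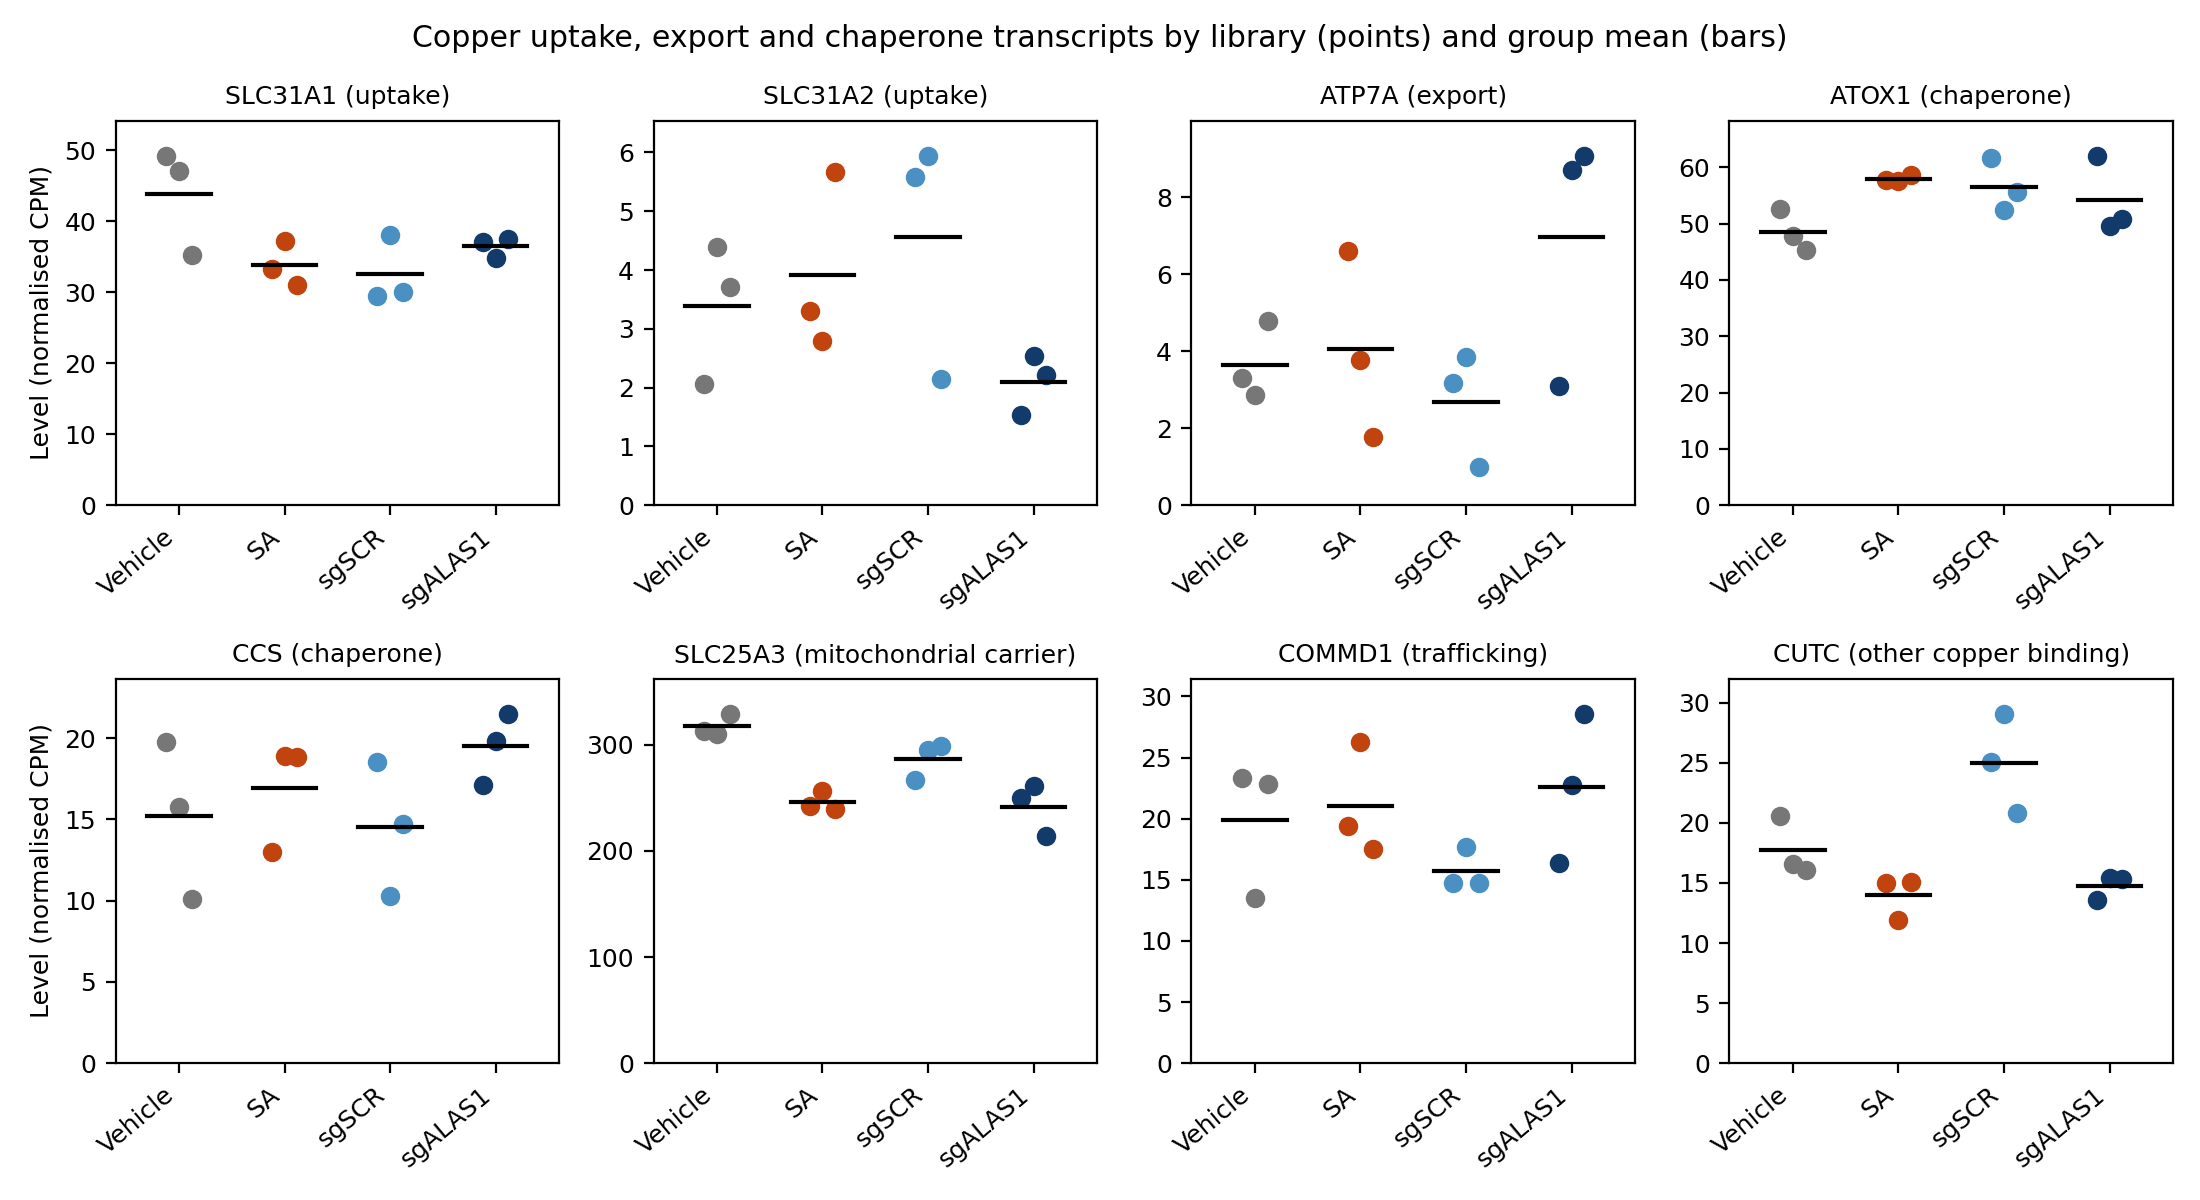
Normalised CPM (vertical axis, from 0) of the 8 transcripts in each of the 12 libraries (points), by group (horizontal axis), with the mean of 3 libraries as a bar. SLC25A3 lies highest in vehicle (311 to 329 CPM) and CUTC highest in sgSCR (20.8 to 29.1 CPM), while points of the groups overlap widely for ATP7A and SLC31A2.

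SLC31A1, the high-affinity importer, was measured at 49.2, 47.05 and 35.2 CPM in the vehicle libraries. In SA the levels were 33.2, 37.2 and 31.0 CPM. In sgSCR they were 29.5, 38.1 and 30.1 CPM, and in sgALAS1 37.0, 34.9 and 37.5 CPM. The first 2 vehicle libraries stood above all others, and the third lay among the SA values, so the groups overlapped. SA against vehicle gave a log2 change of -0.38 (SE 0.16, 95% interval -0.71 to -0.05, adjusted p = 0.139), which did not pass. The guide gave 0.16 (SE 0.17, 95% interval -0.18 to 0.50, adjusted p = 0.611). The effects of the guide and of SA differed by 0.54 (SE 0.23), with an unadjusted p of 0.0270 and an adjusted p of 0.332. The 2 control groups also differed, by -0.43 for sgSCR against vehicle (SE 0.16, adjusted p = 0.223), about as much as SA and vehicle. Against sgSCR in place of vehicle, SA gave 0.05, and against vehicle in place of sgSCR, the guide gave -0.27, so the sign of each SLC31A1 value turns with the control group.

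SLC31A2, whose protein is related to CTR1 and is found on inner membranes, had only 240 reads over the 12 libraries. Its levels were 2.07, 4.40 and 3.72 CPM in vehicle and 3.30, 2.79 and 5.67 CPM in SA. The guide arm showed 5.58, 5.95 and 2.15 CPM in sgSCR and 1.54, 2.54 and 2.22 CPM in sgALAS1. One sgSCR library fell among the sgALAS1 values while the others were higher than every sgALAS1 library. The log2 change for the guide was -1.12 (SE 0.52, 95% interval -2.18 to -0.05, adjusted p = 0.179), and that for SA was 0.23 (SE 0.50, 95% interval -0.79 to 1.25, adjusted p = 0.84). These intervals are wide because so few reads carry the values.

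Both uptake genes share their 3′ end with a neighbour in GENCODE 29, which is not the submitters' annotation. The gene CDC26, on the other strand, covers the 3′ end of SLC31A1 and held 1583 reads against 2551 for SLC31A1. FKBP15, also on the other strand, covers the 3′ end of SLC31A2 and held 2337 reads against 240. For the counting, no strand setting is given in the sources used here, so reads of these pairs may not be fully separated. CDC26, a subunit of the anaphase-promoting complex, had log2 changes of 0.33 under SA (adjusted p = 0.296) and -0.35 under the guide (adjusted p = 0.27), opposite in sign to those of SLC31A1. FKBP15 had -0.08 and 0.01, and FAM225A, the tested gene on the other side of SLC31A2, had 0.55 and 0.14 with 109 reads in all. None of these 3 neighbours passed in either comparison. The processed pseudogene SLC31A1P1 had 0 reads.

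ATP7A, the copper pump of the secretory pathway that moves to the cell surface when copper is high, had 287 reads in all. Vehicle libraries held 3.31, 2.88 and 4.78 CPM and SA libraries 6.61, 3.78 and 1.78 CPM. In sgSCR the levels were 3.19, 3.86 and 0.99 CPM, from 16, 24 and 6 reads. In sgALAS1 they were 3.09, 8.72 and 9.09 CPM, from 20, 48 and 41 reads. Replicates 2 and 3 of sgALAS1 were the highest of all 12 libraries, and replicate 1 lay within the sgSCR range. The log2 change for the guide was 1.36 (SE 0.52, 95% interval 0.29 to 2.43, adjusted p = 0.0911), which did not pass. Without sgALAS1 replicate 1 it was 1.73 with an adjusted p of 0.0404, so that 1 library decides the call. SA gave 0.14 (SE 0.52, 95% interval -0.93 to 1.21, adjusted p = 0.913), and the difference between the effects was 1.22 (SE 0.74, adjusted p = 0.546). In GENCODE 29 the glycolytic gene PGK1, on the same strand, covers the 3′ end of ATP7A and held 24454 reads, so the assignment of reads to ATP7A is uncertain. ATP7B, the related pump of liver, had 25 reads over the 12 libraries and at most 8 in any of them, too few to be tested.

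ATOX1, the chaperone that hands copper to ATP7A and ATP7B, was measured at 52.6, 47.7 and 45.3 CPM in vehicle and at 57.7, 57.5 and 58.7 CPM in SA. All SA libraries lay above all vehicle libraries. The log2 change was nevertheless small, 0.25 (SE 0.14, 95% interval -0.03 to 0.54, adjusted p = 0.259). In sgSCR the levels were 61.6, 52.4 and 55.5 CPM and in sgALAS1 62.05, 49.6 and 50.8 CPM, an overlap that gave -0.06 (SE 0.14, 95% interval -0.34 to 0.23, adjusted p = 0.857). Against vehicle in place of sgSCR the guide gave 0.16, the opposite sign.

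CCS delivers copper to the superoxide dismutase SOD1. CCS levels were 19.7, 15.7 and 10.1 CPM in vehicle, 13.0, 18.9 and 18.8 CPM in SA, 18.5, 10.3 and 14.7 CPM in sgSCR and 17.1, 19.8 and 21.5 CPM in sgALAS1. Vehicle and sgSCR each spread over most of the range of the gene. The log2 change was 0.15 under SA (SE 0.25, 95% interval -0.36 to 0.65, adjusted p = 0.778) and 0.43 under the guide (SE 0.25, 95% interval -0.08 to 0.94, adjusted p = 0.30). SOD1, the enzyme that receives this copper, averaged 231 CPM in vehicle, 233 in SA, 237 in sgSCR and 262 in sgALAS1. Its log2 changes were 0.01 (SE 0.12) and 0.14 (SE 0.11), and neither passed.

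SLC25A3 had the most reads of the members, 18987, and the tightest replicates, with a coefficient of variation within groups of 6.42%. Vehicle libraries held 313, 311 and 329 CPM. SA libraries held 242, 257 and 240 CPM. The guide arm held 267, 295 and 299 CPM in sgSCR and 250, 261 and 214 CPM in sgALAS1. All SA libraries lay below all vehicle libraries, and all sgALAS1 libraries below all sgSCR libraries. Group means were 318 ± 10.1, 246 ± 9.10, 287 ± 17.6 and 242 ± 24.6 CPM (SD, n = 3) for vehicle, SA, sgSCR and sgALAS1. SLC25A3 fell by 0.37 on the log2 scale under SA (SE 0.11, 95% interval -0.59 to -0.15, adjusted p = 0.0254). The guide gave -0.25 (SE 0.11, 95% interval -0.47 to -0.03, adjusted p = 0.146), which did not pass. The effects differed by 0.12 (SE 0.15, 95% interval -0.19 to 0.43, adjusted p = 0.827), so no difference between the arms was detected.

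The SA call for SLC25A3 was lost when 1 of 4 libraries was left out: vehicle replicate 2 (adjusted p = 0.0502), vehicle replicate 3 (0.0904), SA replicate 1 (0.0999) or SA replicate 3 (0.104), although the log2 change stayed between -0.40 and -0.34. Of the control groups, sgSCR lay below vehicle in every library, by -0.15 (SE 0.11, adjusted p = 0.639). Against sgSCR the SA value was -0.22 (adjusted p = 0.191), a comparison in which 13.6% of identifiers passed. Against vehicle the guide gave -0.39 (adjusted p = 0.0118), where 14.9% passed. Mitochondrial transcripts took 11.4 to 12.7% of reads in vehicle and 13.0 to 15.2% in the other groups, and without them and without the most abundant identifier SLC25A3 still gave -0.35 under SA (adjusted p = 0.0302). Its processed pseudogenes SLC25A3P1 and SLC25A3P2 had 0 reads each.

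COMMD1 takes part in the trafficking of ATP7A and ATP7B, in a complex that recycles membrane proteins from endosomes. COMMD1 levels were 23.3, 13.5 and 22.8 CPM in vehicle and 19.4, 26.3 and 17.5 CPM in SA. They were 14.7, 17.7 and 14.7 CPM in sgSCR and 16.4, 22.7 and 28.6 CPM in sgALAS1. Only sgALAS1 replicate 1 lay within the sgSCR range, and the other sgALAS1 libraries were above it. The log2 change was 0.51 under the guide (SE 0.23, 95% interval 0.03 to 0.99, adjusted p = 0.173) and 0.08 under SA (SE 0.23, 95% interval -0.40 to 0.55, adjusted p = 0.889).

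CUTC, the human relative of a bacterial protein of copper tolerance, was measured at 20.6, 16.6 and 16.1 CPM in vehicle and at 14.96, 11.9 and 15.1 CPM in SA. In sgSCR it reached 25.1, 29.1 and 20.8 CPM, and in sgALAS1 13.6, 15.4 and 15.3 CPM. All SA libraries lay below all vehicle libraries, all sgALAS1 libraries below all sgSCR libraries, and all sgSCR libraries above all vehicle libraries. Group means were 17.7 ± 2.44 CPM in vehicle, 14.0 ± 1.78 in SA, 25.0 ± 4.13 in sgSCR and 14.8 ± 1.03 in sgALAS1 (SD, n = 3). CUTC fell by 0.76 on the log2 scale under the guide (SE 0.21, 95% interval -1.18 to -0.34, adjusted p = 0.0123). SA gave -0.34 (SE 0.21, 95% interval -0.77 to 0.08, adjusted p = 0.322). The effects differed by -0.42 (SE 0.29, 95% interval -1.01 to 0.18, adjusted p = 0.624).

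The guide call for CUTC was lost without sgSCR replicate 2 (-0.63, adjusted p = 0.0974) and without sgALAS1 replicate 1 (-0.70, adjusted p = 0.0621). CUTC was the member in which the 2 control groups stood furthest apart, at 0.49 for sgSCR against vehicle (SE 0.20, adjusted p = 0.267). Against vehicle, the guide gave only -0.27 (adjusted p = 0.437), and against sgSCR, SA gave -0.83 (adjusted p = 0.00609). In each arm the CUTC value was larger in size against sgSCR than against vehicle. COX15, a heme A synthase needed for cytochrome oxidase, starts 107 bases from CUTC on the other strand in RefSeq, and their promoter windows share 206 bases. In GENCODE 29 the COX15 model overlaps that of CUTC without covering its 3′ end, and it held 2948 reads against 1243. COX15 averaged 42.2, 41.9, 43.4 and 43.9 CPM in vehicle, SA, sgSCR and sgALAS1, with log2 changes of -0.01 (adjusted p = 0.977) and 0.02 (adjusted p = 0.968). DNMBP, the next tested gene on the other side, gave -0.79 and -0.31 and did not pass in either comparison.

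**Figure D2:**
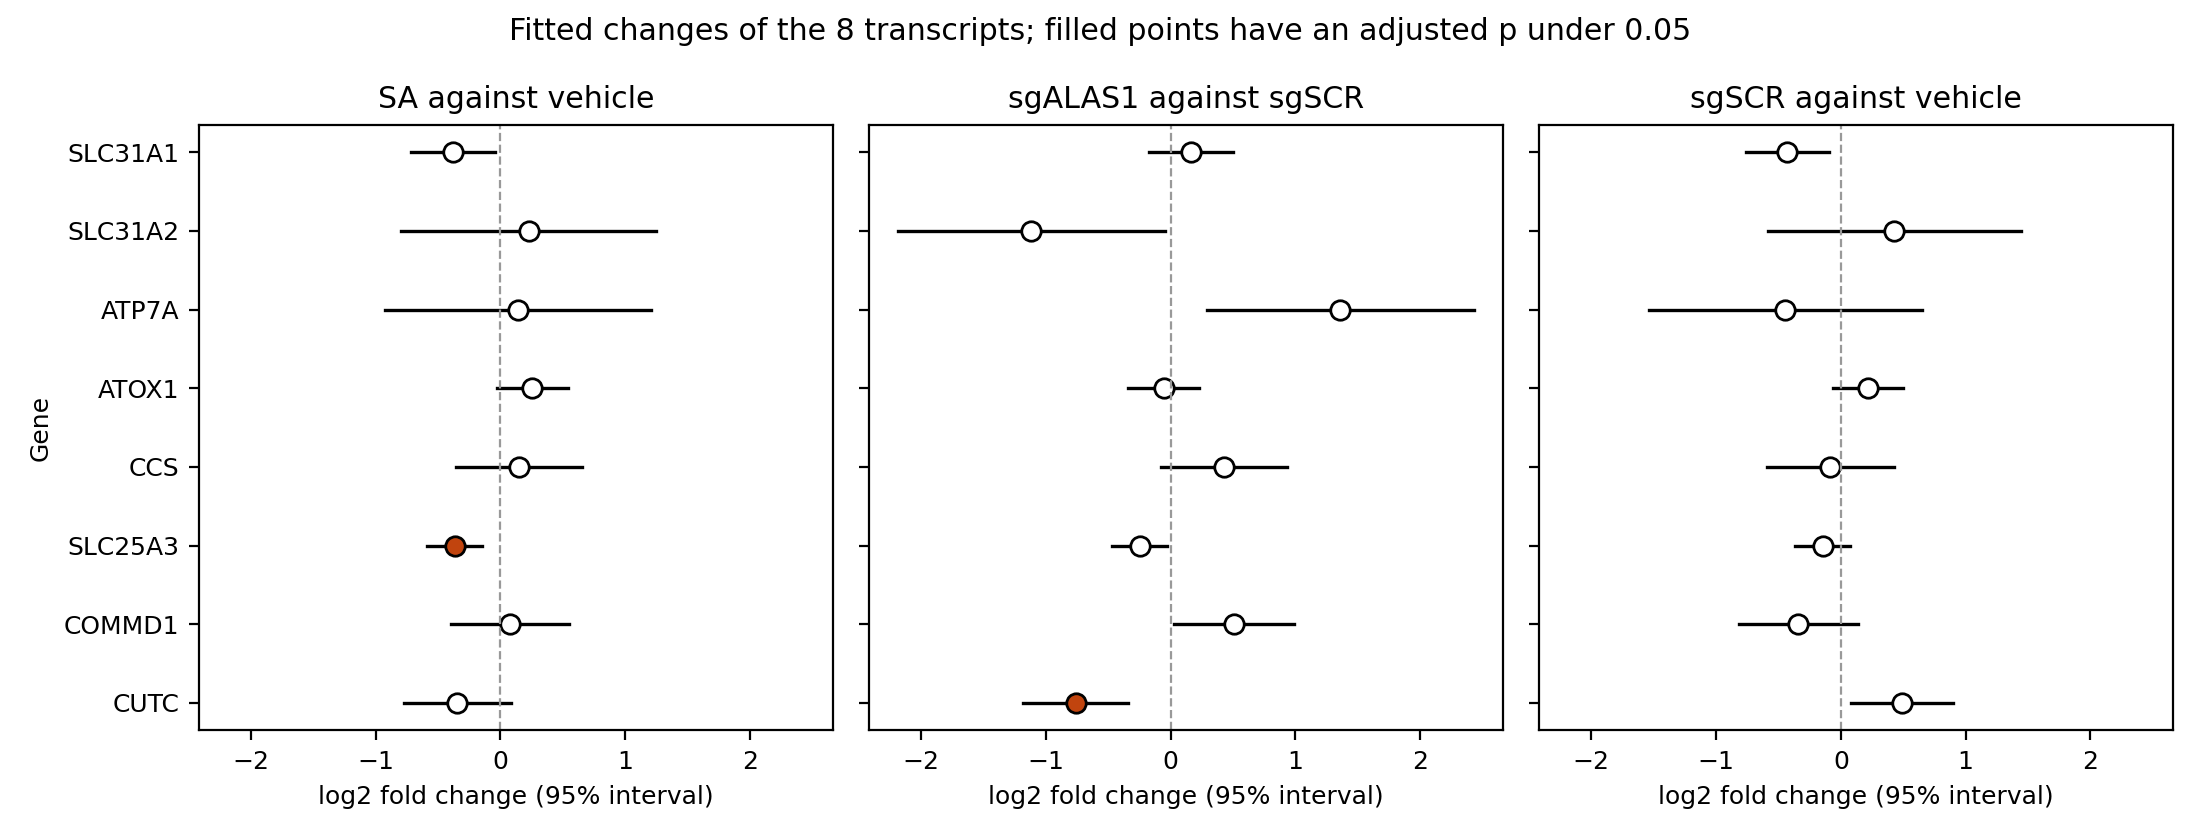
Fitted log2 fold changes (horizontal axis, points, with 95% intervals as lines) of the 8 genes (vertical axis) for SA against vehicle, sgALAS1 against sgSCR and sgSCR against vehicle. Filled points passed the test, SLC25A3 at -0.37 in the first panel and CUTC at -0.76 in the second, and the widest intervals belong to SLC31A2 and ATP7A.

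Directions in the 2 treated arms, SA first and the guide second, were -0.38 and 0.16 for SLC31A1, 0.23 and -1.12 for SLC31A2, and 0.25 and -0.06 for ATOX1. They were of 1 sign for ATP7A (0.14 and 1.36), CCS (0.15 and 0.43), COMMD1 (0.08 and 0.51), SLC25A3 (-0.37 and -0.25) and CUTC (-0.34 and -0.76). The test of the difference between the effects passed for 0 of the 8 members and for 1.19% of all tested identifiers, and 1 of 8 members, SLC31A1, had an unadjusted p under 0.05, beside 11.9%. DESeq2's Wald test also called 0 members for the difference.

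Between the control groups, sgSCR against vehicle, 0 of 8 members passed, as against 1.43% of all identifiers, and 2 of 8 members, SLC31A1 and CUTC, had an unadjusted p under 0.05, beside 12.6%. DESeq2's Wald test called 0 as well. The libraries of the control groups did not overlap for 2 of 8 members, CUTC and SLC25A3, beside 17.1% of all tested identifiers. For SA against vehicle they did not overlap for 3 of 8 members, ATOX1, SLC25A3 and CUTC, beside 27.4%. For the guide they did not overlap for 2 of 8, SLC25A3 and CUTC, beside 29.1%. In the order of group means, neighbouring groups were apart only for SLC25A3 (vehicle above sgSCR above SA) and CUTC (sgSCR above vehicle above sgALAS1). For the other 6 members every neighbouring pair of groups overlapped.

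**Figure D3:**
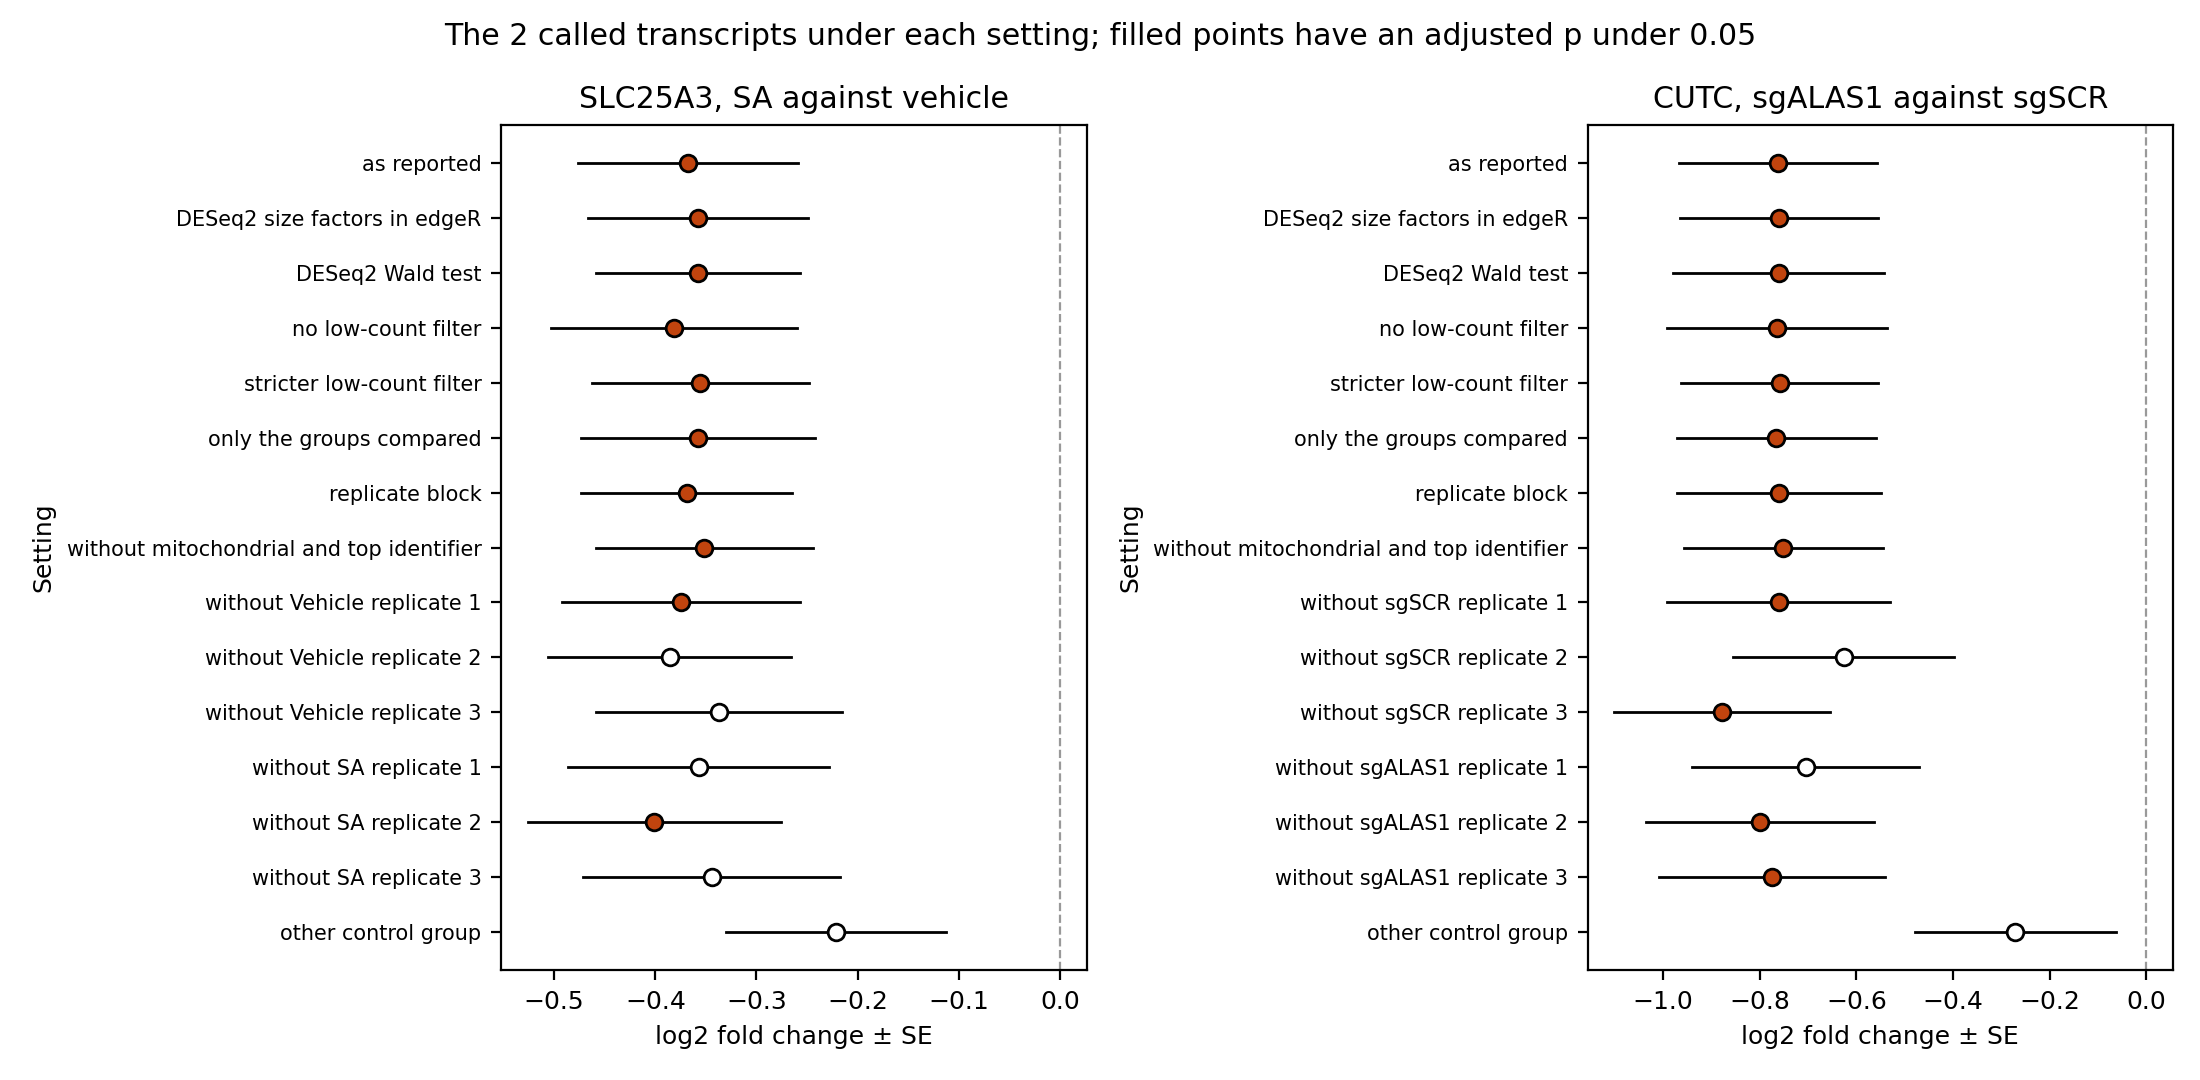
Log2 fold change (horizontal axis, point, with its SE as a line) of SLC25A3 for SA against vehicle and of CUTC for sgALAS1 against sgSCR under each setting (vertical axis). Filled points have an adjusted p under 0.05; both values stay below 0 in every setting, and the smallest in size, -0.22 and -0.27, come with the other control group.

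The genes whose levels followed a member most closely were sought among 4741 or 4742 other identifiers whose log2 CPM averaged at least 5, by Pearson's r of log2 CPM over the same 12 libraries. These libraries share treatments and depth, so r is a description. SLC25A3 was followed most closely by DUT (r = 0.96), which clears dUTP, by the nucleolar gene NOL7 (0.95) and by MCM3 (0.94), part of the replicative helicase. DUT fell by 0.57 and 0.48 on the log2 scale under SA and the guide, NOL7 by 0.81 and 0.57, and MCM3 by 1.02 and 0.89, each with an adjusted p under 0.05 in both comparisons. For SLC31A1 the closest were HAX1 (0.91), an apoptosis regulator of mitochondria, the bZIP factor CEBPG (0.90) and the stress gene DDIT4 (0.88). All 3 had their highest group mean in vehicle, as SLC31A1 did. HAX1 in vehicle replicate 3 (119.6 CPM) nevertheless lay below all 3 SA libraries, the lowest of which had 127 CPM. DDIT4 was at 139, 232 and 51.1 CPM in vehicle, 35.6, 37.4 and 40.2 in SA, 16.9, 68.1 and 25.0 in sgSCR and 33.0, 29.4 and 30.8 in sgALAS1, so vehicle and sgSCR overlapped. DDIT4 nevertheless passed for sgSCR against vehicle (-1.92, adjusted p = 0.00184) and for SA against vehicle (-1.90, adjusted p = 0.00032). The guide gave -0.25 for DDIT4 (adjusted p = 0.736). HAX1 and CEBPG passed in neither arm and not between the controls. For ATP7A the closest were the actin regulator WDR1 (0.79), BNIP2 (0.77) and the small GTPase RALB (0.76), and r for WDR1 dropped to 0.62 without sgSCR replicate 3. Log2 changes under SA and the guide were small, at -0.02 and 0.21 for WDR1, -0.06 and 0.03 for BNIP2 and 0.04 and 0.30 for RALB. None of these passed, so a high r here does not mean a shared change between groups.

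The wider copper machinery was read from 71 genes in 6 lists, of which 50 were tested. Under SA 3 rose and 5 fell, 16.0% of those tested, beside 11.1% of all tested identifiers. Under the guide 3 rose and 6 fell, 18.0%, beside 11.7%. The median log2 change was -0.04 in both, beside -0.01 and -0.00 over all identifiers. Between the control groups 0 of the 50 passed, beside 1.43% of all tested identifiers. At an unadjusted p under 0.05 there were 10 of the 50, beside 12.6%, so the absence of calls does not show that the controls were alike.

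Of 9 genes that deliver copper to cytochrome oxidase, 0 passed under SA, beside 11.1% of all tested identifiers, and 1 rose under the guide, beside 11.7%. That gene was CHCHD7, a twin-cysteine protein of the intermembrane space, at 121, 110 and 115 CPM in sgSCR and 146, 167 and 141 CPM in sgALAS1 (log2 change 0.39, SE 0.12, adjusted p = 0.0223). That call was lost without a count filter (adjusted p = 0.0521) and when any 1 of 4 libraries was left out (up to 0.135). Under SA, CHCHD7 gave 0.34 with an adjusted p of 0.0509, at the edge of the threshold. It passed with DESeq2's Wald test (0.0174), with DESeq2's size factors (0.0444), with a stricter filter (0.0342), with the replicate block (0.0435), without mitochondrial transcripts and the identifier with most reads (0.0405) and without vehicle replicate 3 (0.0474), and it did not pass without any other single library. COX17, the chaperone that feeds SCO1 and SCO2, gave -0.30 under SA (SE 0.16, adjusted p = 0.232) and -0.01 under the guide. SCO1 and SCO2 gave 0.01 each under SA and -0.04 each under the guide. Of 5 tested copper enzymes out of 19 listed, 1 passed under SA, beside 11.1% of all tested identifiers, and 0 under the guide, beside 11.7%. The gene that passed, MT-CO1, encodes a copper subunit of cytochrome oxidase in mitochondrial DNA. It rose from 1459, 1217 and 1270 CPM in vehicle to 1875, 1724 and 1873 CPM in SA (log2 change 0.47, SE 0.10, adjusted p = 0.00164). The guide gave 0.19 for MT-CO1 (adjusted p = 0.237). The sgSCR libraries, at 1556, 1606 and 1491 CPM, also lay above all vehicle libraries (0.24, SE 0.10, adjusted p = 0.285). Vehicle also had the lowest shares of mitochondrial reads, as given above for SLC25A3. MT-CO1 averaged 1824 CPM in SA, nearer to sgSCR (1551) than to vehicle (1315), and all SA libraries lay above all sgSCR libraries. The part of the control group and of the mitochondrial share in the SA value was not tested. MT-CO2, the other copper subunit, named here after its values were seen, gave 0.24 under SA (adjusted p = 0.113) and 0.18 under the guide (adjusted p = 0.26).

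Copper binding by thiols held more calls under the guide than any other list, and under SA as many as the sensing list. Of 10 tested genes out of 14 listed, 0 rose and 3 fell under SA, 30% beside 11.1% of all tested identifiers. Under the guide 1 rose and 4 fell, 50% beside 11.7%. All of these calls were metallothionein genes. The glutathione synthesis genes GCLC, GCLM and GSS, named here after their values were seen, passed in neither arm. Their log2 changes under SA and the guide were -0.96 and -0.75 for GCLC, 0.39 and 0.20 for GCLM, and 0.01 and -0.29 for GSS. MT1G, a metallothionein, went from 224, 224 and 193 CPM in vehicle to 104, 132 and 103 CPM in SA, and from 224, 261 and 232 CPM in sgSCR to 72.4, 78.7 and 62.5 CPM in sgALAS1. MT1G fell by 0.92 (SE 0.13, adjusted p = 5.57e-06) and by 1.75 (SE 0.13, adjusted p = 1.90e-11) on the log2 scale. MT1F fell by 0.97 and 1.02 and MT1E by 0.63 and 0.58. MT1H had 76, 70 and 67 reads in sgSCR and 2, 1 and 4 reads in sgALAS1 (adjusted p = 4.50e-09), while SA gave -0.58 (adjusted p = 0.236). MT2A went the other way under the guide, from 236, 299 and 258 CPM to 440, 511 and 379 CPM (log2 change 0.75, SE 0.15, adjusted p = 0.000824), and gave -0.38 under SA (adjusted p = 0.109), a value that ranged from -0.13 without vehicle replicate 2 (adjusted p = 0.68) to -0.54 without vehicle replicate 3 (0.0194). That SA value also passed with the replicate block (0.0322) and without a count filter (0.0289). The vehicle libraries held 325, 455 and 259 CPM of MT2A, a range that overlapped that of sgALAS1. For MT2A, sgSCR against vehicle gave -0.39 (SE 0.15, adjusted p = 0.234). MT1X, named here after its values were seen, averaged 105 CPM in both vehicle and SA (-0.003, adjusted p = 0.994). Under the guide it gave -0.36 (adjusted p = 0.0802). Metallothionein genes are similar in sequence, and the sources used here do not give how reads that map to several of them were counted. Shifts between single metallothionein genes are therefore uncertain.

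**Figure D4:**
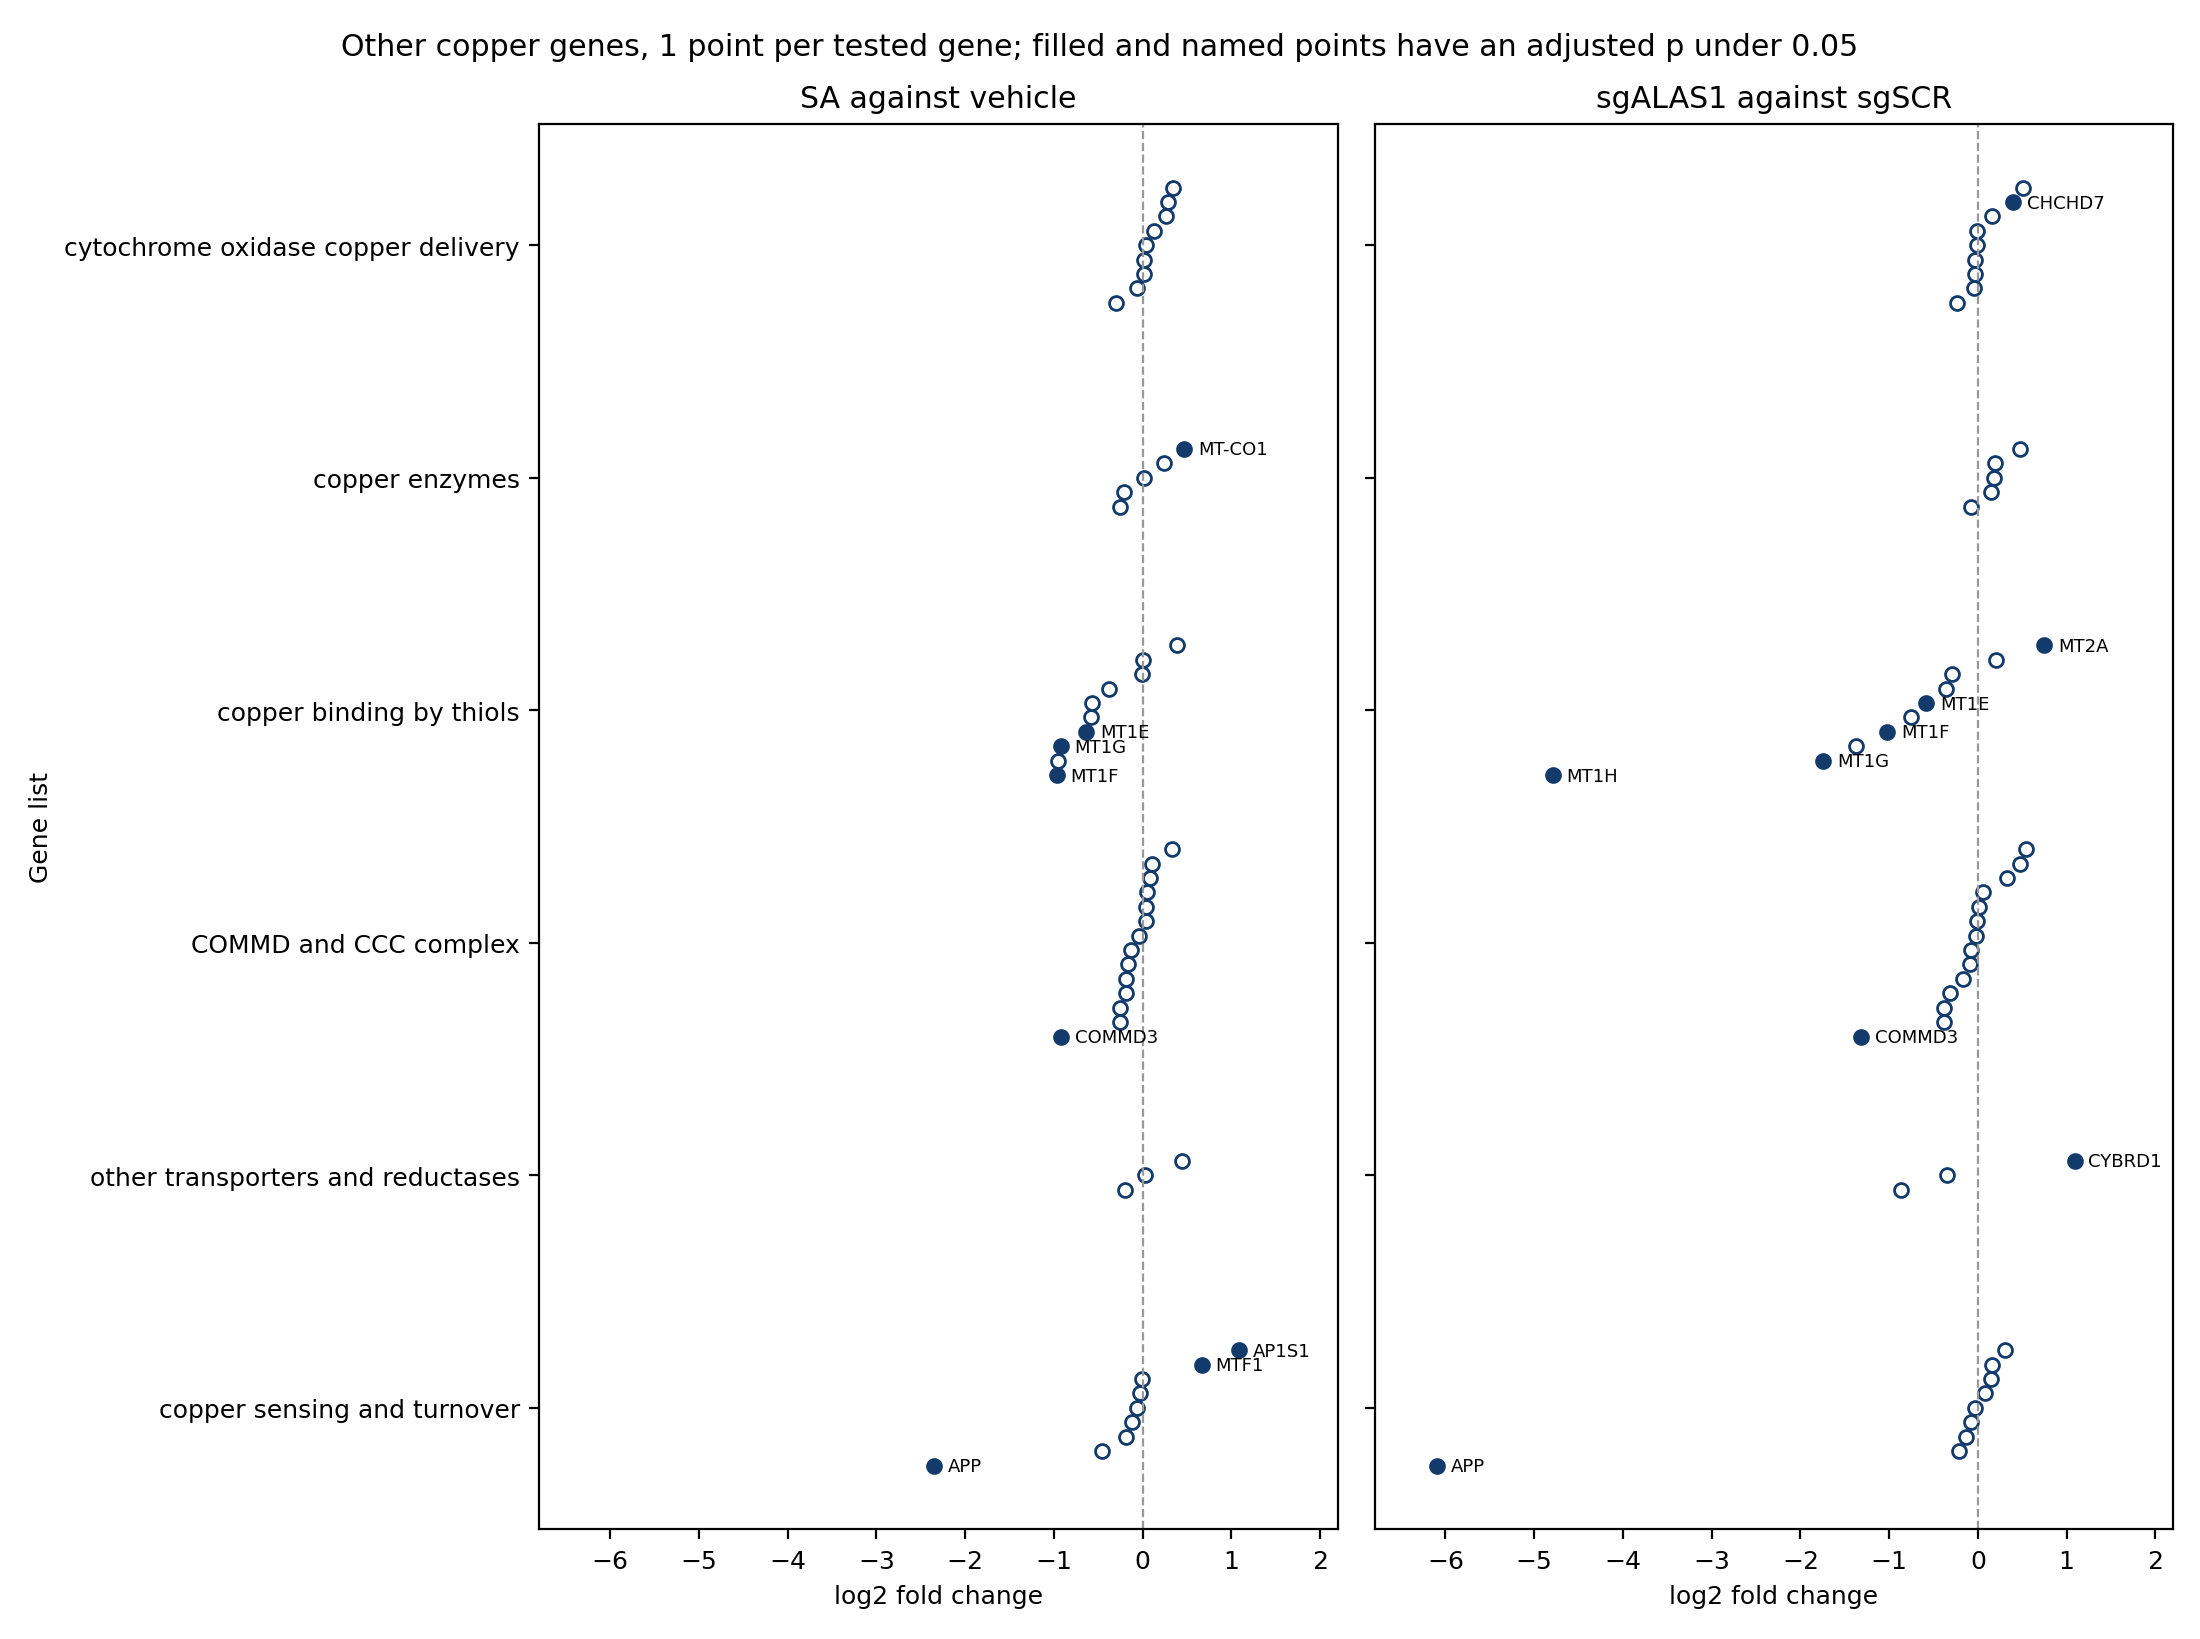
Log2 fold change (horizontal axis) of each tested gene of the 6 copper lists (vertical axis, 1 point per gene, stacked by value within a list) for SA against vehicle and for sgALAS1 against sgSCR; filled, named points passed the test. The metallothioneins MT1E, MT1F and MT1G lie below 0 in both panels, and MT2A lies at 0.75 in the right panel.

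Among 14 COMMD and CCC complex genes, relatives and partners of COMMD1, 7.14% passed in each arm, beside 11.1% and 11.7% of all tested identifiers: only COMMD3. It fell from 40.7, 42.3 and 45.8 CPM in vehicle to 22.3, 22.1 and 23.7 CPM in SA (log2 change -0.92, SE 0.16, adjusted p = 0.000268), and from 49.6, 52.1 and 37.7 CPM in sgSCR to 20.1, 17.6 and 18.0 CPM in sgALAS1 (-1.32, SE 0.17, adjusted p = 9.90e-07). A readthrough transcript joins COMMD3 to BMI1, so the assignment of reads there is uncertain. The median of the 14 genes was -0.09 under SA and -0.05 under the guide. Of 6 other transporters and reductases 3 were tested. Of these 3, 0 passed under SA, beside 11.1% of all tested identifiers, and 1 rose under the guide, beside 11.7%. That gene was CYBRD1, a membrane ferric and cupric reductase, at 4.78, 5.79 and 7.61 CPM in sgSCR and 17.4, 10.2 and 11.1 CPM in sgALAS1 (1.09, SE 0.29, adjusted p = 0.009998). That call was lost without sgSCR replicate 1 (adjusted p = 0.06) and without sgALAS1 replicate 1 (0.124). CYBRD1 was at 7.59, 9.48 and 10.6 CPM in vehicle, and sgSCR against vehicle gave -0.59 (SE 0.29, adjusted p = 0.394).

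Of 9 sensing and turnover genes, 2 rose and 1 fell under SA, 33.3% beside 11.1% of all tested identifiers. Under the guide 0 rose and 1 fell, 11.1% beside 11.7%. MTF1, the metal-responsive factor, went from 35.6, 29.3 and 35.0 CPM in vehicle to 47.2, 49.5 and 61.6 CPM in SA (0.67, SE 0.18, adjusted p = 0.0158), a call lost without vehicle replicate 2 (0.0913) or SA replicate 3 (0.109). Under the guide MTF1 gave 0.15 (adjusted p = 0.691). AP1S1, an adaptor subunit that sorts cargo such as ATP7A at the Golgi, rose under SA from 58.3, 33.3 and 39.3 CPM to 91.5, 75.2 and 112 CPM (1.09, SE 0.17, adjusted p = 4.41e-05). For AP1S1, sgSCR held 71.1, 63.8 and 57.2 CPM, and sgSCR against vehicle gave 0.54 (SE 0.17, adjusted p = 0.117). The guide gave 0.31 (SE 0.17, adjusted p = 0.258), with all sgALAS1 libraries above all sgSCR libraries. APP, the copper-binding amyloid precursor, had 138, 83 and 82 reads in vehicle, 12, 17 and 22 in SA, 105, 126 and 80 in sgSCR, and 0, 4 and 0 in sgALAS1. APP fell by 2.35 on the log2 scale under SA (SE 0.35, adjusted p = 2.35e-05), and it also passed under the guide (adjusted p = 4.55e-10).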

How the data were processed

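QuantSeq 3′ libraries of polyadenylated RNA were sequenced as single-end reads, per the labels' protocols. Per the submitters' processing notes, the tools were bcl2fastq 2.17.1.14, cutadapt 1.14, HISAT2 2.0.4 and featureCounts of Subread 2.0.0, with hg19; edgeR 3.34.0 and limma 3.48.3 are also listed. The deposited table holds the authors' raw read count per Ensembl identifier, without normalisation. The annotation release, strand setting and treatment of reads with several matches are stated nowhere in the sources used here. All columns were matched to samples by name, and 0 were left over.

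A current gene table named 51996 identifiers and GENCODE 29 another 342, and 5567 stayed unnamed. Where a symbol had several identifiers, the one with most reads was taken. All 12 libraries were fitted by group in R 4.3.3 with edgeR 4.0.16: filterByExpr by group kept 13832 identifiers, TMM normalisation was used, and the quasi-likelihood F-test is two-sided, with Benjamini-Hochberg adjustment over all tested identifiers. The SE is the log2 change divided by the square root of F. Intervals and p-values rest on 3 libraries a group, and low counts limit precision. The fit was tested on simulated data. Alternatives were DESeq2 1.42.0, its size factors, other count filters, only the groups compared, a replicate block, no mitochondrial transcripts, each library left out and, chosen after seeing the data, the other control group.

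Same-numbered libraries were not more alike (residual correlations -0.0661 to 0.0572) than others (-0.152 to 0.109), so no pairing by replicate number was seen. So few pairs cannot exclude it, and the replicate block gave more calls in every comparison. The 8 members, the copper lists, the markers and the naming rule were picked with earlier results of these data known, and their counts are descriptions. The rule names the members, ALAS1, ATP7B, SOD1, COX17, SCO1, SCO2 and MTF1, up to 5 list genes per list and comparison that passed, COX15, tested neighbours of SLC31A1, SLC31A2 and CUTC, and the 3 genes most like SLC31A1, ATP7A and SLC25A3. Overlapping gene models were looked up only for the members. RefSeq promoter windows were searched for fixed motifs on both strands, and no gene coordinates of another build were joined to the counts.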

Additional observations from a re-analysis of the deposited data

Results flagged for a closer look

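Among the genes named above, 5 differed between the arms, by the test of the sgALAS1 effect minus the SA effect (edgeR's quasi-likelihood test, adjusted over all tested identifiers), and 0 of them are members. Of all tested identifiers 1.19% passed this test. List genes were named in part because they passed it or the test of 1 arm, so the count of 5 is not a result about the lists. ALAS1 differed by -2.16 on the log2 scale (adjusted p = 1.14e-08): all 3 SA libraries lay above vehicle and all 3 sgALAS1 libraries below sgSCR. MT1G differed by -0.82 (SE 0.18, adjusted p = 0.0106), with a fall in both arms that was larger under the guide. MT1H differed by -4.21 (adjusted p = 2.51e-05) and APP by -3.75 (adjusted p = 0.00288), and both had at most 4 reads in any sgALAS1 library, so the fitted size depends on the prior count. Leaving out sgALAS1 replicate 2, which held all 4 APP reads of its group, moved the APP difference to -7.36, and leaving out sgALAS1 replicate 1 gave -3.10. MT2A differed by 1.12 (SE 0.21, adjusted p = 0.00282), with a rise under the guide and a value of -0.38 under SA that did not pass. For MT2A, sgSCR against vehicle gave -0.39 (SE 0.15, adjusted p = 0.234), about the SA value, and the part of the control groups in the MT2A difference was not tested.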

How the results depend on the processing

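SLC25A3 under SA and CUTC under the guide passed in every setting tried other than leaving out a library or exchanging the control group. With the replicate block, 1704, 1796, 227 and 266 identifiers passed for SA, the guide, the difference and the controls, beside 1531, 1622, 164 and 198 without it. The calls among the 8 members did not change. DESeq2's Wald test called 300 identifiers between the controls (198 with edgeR), and no count filter gave 277 for the difference (164) and 1 copper list gene between the controls. Values near 0 changed sign: without a filter SOD1 -0.0014, SCO1 -0.00094 and SCO2 -0.0039 under SA, with a stricter filter COX15 0.0014, with the block SCO2 -0.00069, and without mitochondrial transcripts COX15 0.0052 under SA and COX17 0.0023 under the guide. With the other control, SLC31A1 gave 0.050 and SLC31A2 -0.20 under SA, and SLC31A1 -0.27 and ATOX1 0.16 under the guide. Leaving out each library gave 954 to 1595 calls for SA (954 without SA replicate 3, 982 without SA replicate 1, 955 without vehicle replicate 2), 109 to 340 for the difference (340 without vehicle replicate 1, 109 without sgSCR replicate 1) and 84 to 276 between the controls (84 without sgSCR replicate 1, 104 without vehicle replicate 2), 0 to 1 member in each arm and 0 to 1 copper list gene between the controls. Changes of sign in these runs, as lowest and highest log2 values, were for SA SLC31A2 -0.14 to 0.46, ATP7A -0.41 to 0.51, CCS -0.066 to 0.39, COMMD1 -0.14 to 0.21, SOD1 -0.044 to 0.090, SCO1 -0.081 to 0.11, SCO2 -0.24 to 0.12, COX15 -0.11 to 0.061, FKBP15 -0.26 to 0.069; for the guide ATOX1 -0.17 to 0.0058, COX17 -0.10 to 0.12, SCO1 -0.16 to 0.091, SCO2 -0.11 to 0.0076, MTF1 -0.061 to 0.31, COX15 -0.012 to 0.057, FAM225A -0.11 to 0.65, FKBP15 -0.052 to 0.13, DNMBP -0.72 to 0.10; and between the controls CCS -0.31 to 0.15. The causes were not tested.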
